A study of Rattus norvegicus with 17 samples.

Results

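The genes described here are those of the rat potassium channels and of the HCN pacemaker channels, taken as every gene label that began with Kcn or was that of an HCN gene. The rule found 73 of the 11247 genes in the table. By symbol they comprised 35 voltage-gated alpha subunits, 4 HCN channels, 9 inward rectifiers, 8 two-pore channels, 6 calcium- or sodium-activated channels and 11 auxiliary or regulatory subunits. All 73 labels matched a current symbol in a RefSeq gene table of the rat build GRCr8, which was used for names and promoters only.

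Messenger RNA was sequenced from 17 libraries of rat primary cultures of cerebral cortex, labelled as glutamatergic neurons with astrocytes. One set carried the A53T variant of α-synuclein and received the vehicle DMSO (2 libraries), FK506 at 0.2 µM (3 libraries) or FK506 at 2.0 µM (3 libraries). The other set carried an empty vector and received DMSO, 0.2 µM or 2.0 µM (3 libraries each). The labels call the lower dose sub-saturating and the higher one saturating, and they name neither the promoter of the construct nor the time in culture. As labelled, A53T and empty-vector cultures in DMSO differed by the introduced gene, and every group received vehicle or drug.

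Potassium channels carry the outward current that sets the resting potential, ends the action potential and spaces repetitive firing, whereas HCN channels carry a mixed cation current that opens on hyperpolarization. Voltage-gated channels repolarize the spike, inward rectifiers and two-pore channels hold the resting potential, and calcium-activated channels produce the afterhyperpolarization. FK506 binds an immunophilin and the complex inhibits calcineurin, a calcium-dependent phosphatase that is abundant in neurons.

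The normalized counts of a library summed to between 15091428 and 18335540, and how many reads stood behind them is not known. With normalized counts taken as reads, the 3 libraries of A53T at 0.2 µM differed from each other by 0.995 to 1.05 times sampling noise. For pairs within the other groups this was 1.48 to 14.5 times, so these 3 libraries were counted as 1 sample. Since the reads are unknown, the ratios serve to compare groups and do not measure the true sampling noise. Along the leading axis of within-group differences, which held 54.3% of the within-group variance of the other 14 libraries, A53T at 2.0 µM replicate 1 scored -0.542, vector at 2.0 µM replicate 2 scored -0.198 and vector at 0.2 µM replicate 1 scored -0.0607, each below the others of its group. These are called the 3 outlying libraries. On this scale, which is the root mean square log2 shift over genes, the A53T libraries at 0.2 µM scored 1.116 to 1.126, above the 0.342 of the next library. Across the 73 members, the loading on this axis and the log2 ratio of A53T at 0.2 µM to A53T in DMSO had a Pearson r of 0.608, given as a description because both come from the same libraries.

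Marker genes of the labelled cell types were present: the summed normalized counts of 10 of 10 pan-neuronal markers ran from 40412 to 44277 in A53T at 2.0 µM and 34793 to 36658 in vector at 2.0 µM, against 47476 to 48539 in A53T in DMSO and 49437 to 53233 in vector in DMSO. The 8 glutamatergic markers summed to 3936 to 6072 in A53T at 2.0 µM, against 10456 to 11272 in A53T in DMSO. In vector cultures they summed to 6559 to 8122 at 2.0 µM, against 11265 to 12868.5 in DMSO. The 9 measured astrocyte markers of 10 summed to 42099 to 46674 in A53T at 2.0 µM, against 75991 to 79623 in A53T in DMSO, and to 38733 to 40576 in vector at 2.0 µM, against 89152 to 91523 in vector in DMSO. The 8 measured GABAergic markers of 10, a cell type that the labels do not name, summed to 10817 to 13711 in A53T at 2.0 µM, against 16387 to 16778 in A53T in DMSO. In vector cultures they summed to 30765 to 34691 in DMSO, 17577 to 19895 at 0.2 µM and 12213 to 14173 at 2.0 µM. In bulk cultures such as these, fewer cells of a type and less RNA per cell cannot be told apart. The labels do not state that replicate libraries were grown as separate cultures, so every p-value measures only the spread between these libraries, which may be technical.

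Most potassium channel genes that changed at 2.0 µM FK506 were lower, in both sets of cultures. In vector cultures at 2.0 µM against DMSO, 36 of 73 members fell and 5 rose in limma's moderated test with Benjamini-Hochberg adjustment over all genes at 0.05, while 23.8% of all genes fell, 23.4% rose and 47.2% were called in either direction. The median log2 fold change of the members was -0.65, against 0.00 for all genes, and the libraries of the 2 groups did not overlap for 49 members (60.5% of all genes). In A53T cultures at 2.0 µM against DMSO, 31 members fell and 3 rose, while 17.9% of all genes fell, 19.7% rose and 37.6% were called in all. The median was -0.43 for the members and 0.01 for all genes, and the groups did not overlap for 47 members (64.5% of all genes). The 2 comparisons share no libraries: 22 members fell in both, which is 71.0% of the A53T falls and 61.1% of the vector falls, against 58.7% and 44.3% for all genes. Kcnn3 and Kcnj14 rose in both, and 0 members moved in opposite directions among those called in both.

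The lower dose in vector cultures and the A53T construct in DMSO each moved fewer members than 2.0 µM did in vector cultures. The lower dose in A53T cultures is described further below. In vector cultures at 0.2 µM against DMSO, 8 members fell and 3 rose (10.6% and 7.70% of all genes, 18.3% together), a share of called members of 15.1% that lay near the background; the groups did not overlap for 29 members (38.7% of all genes). Vector cultures at 2.0 µM had 37 members lower and 2 higher than vector cultures at 0.2 µM (15.7% and 18.0% of all genes, 33.7% together), without overlap for 47 (45.2% of all genes). A53T cultures in DMSO had 17 members lower and 1 higher than vector cultures in DMSO (8.19% and 5.85% of all genes, 14.0% together), without overlap for 44 (60.4% of all genes). Kcnc1, Kcnc2 and Kcnj4 were lower and Kcnn3 was higher in each of 4 comparisons, the drug at each dose in vector cultures, the drug at 2.0 µM in A53T cultures and A53T against vector in DMSO. Of these comparisons 3 share the vector DMSO libraries and 2 share the A53T DMSO libraries, so this is a description of the same libraries and not independent support.

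The A53T calls at 2.0 µM rested on the DMSO pair: 16 of 73 members passed without the unnumbered A53T DMSO library, 22 without its partner, replicate 1, and 19 when only these 2 groups entered the fit. Of the 34 A53T calls, 15 passed with any 1 library left out, and of the 41 vector calls, 34 did. In vector cultures at 2.0 µM the count stayed between 36 and 40 with any 1 library left out. Without the 3 outlying libraries, 45 members passed in vector cultures and 41 in A53T cultures at 2.0 µM. Over all genes, the A53T calls at 2.0 µM moved likewise. From 2215 higher and 2018 lower they fell to 915 and 871 with only their 2 groups in the fit. They fell as well without either A53T DMSO library, and rose to 2812 and 2625 without the 3 outlying libraries. The calls of all genes also moved in the same directions in the fits given next. Calls in vector cultures at 0.2 µM ran to 6 of 73 without replicate 3 of that group and to 27 without the 3 outlying libraries, and those of A53T against vector in DMSO to 10 without A53T DMSO replicate 1 and to 32 without the 3 outlying ones.

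**Figure D1:**
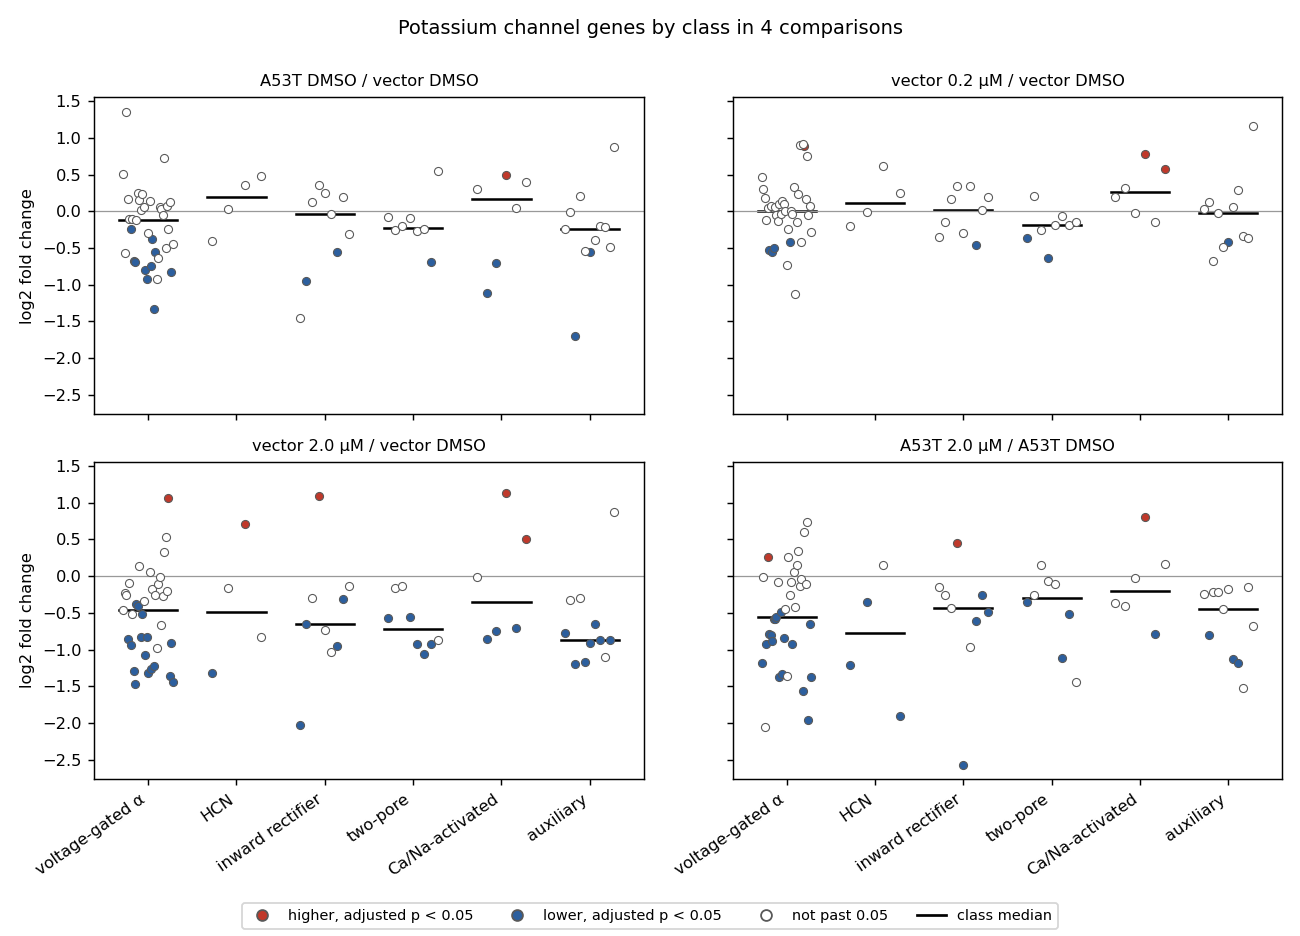
Log2 fold change (vertical axis) of each of the 73 members by class (horizontal axis) in 4 comparisons, 1 panel each. Red points are higher and blue points lower at an adjusted p under 0.05, white points did not pass, and bars are class medians. In both 2.0 µM panels the median of every class lies below 0, whereas the points of the vector 0.2 µM panel lie on both sides of 0, with 8 members lower and 3 higher.

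Every class had a median below 0 at 2.0 µM, in both sets of cultures and under every alternative tried. Of the 35 voltage-gated alpha subunits, 17 fell and 1 rose in A53T cultures, and 16 fell and 1 rose in vector cultures (medians -0.55 and -0.46). Of the 9 inward rectifiers, 4 fell and 1 rose in each (medians -0.43 and -0.65). Of the 8 two-pore channels, 3 fell in A53T and 5 in vector cultures, and none rose in either (medians -0.31 and -0.72). Of the 6 calcium- or sodium-activated channels, 1 fell and 1 rose in A53T cultures, whereas 3 fell and 2 rose in vector cultures (medians -0.20 and -0.36). Of the 4 HCN genes, 3 fell in A53T cultures, and 1 fell and 1 rose in vector cultures (medians -0.78 and -0.49). Of the 11 auxiliary subunits, 3 fell in A53T and 7 in vector cultures (medians -0.45 and -0.87). Of all genes 17.9% fell and 19.7% rose in A53T cultures, and 23.8% fell and 23.4% rose in vector cultures. In either direction, 48.6% of the voltage-gated members were called in vector cultures, near the 47.2% of all genes. In A53T cultures 37.5% of the two-pore members were called, near the 37.6% of all genes. The classes were not tested against each other.

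Beside these counts, markers of the cell types moved as well. At 2.0 µM, 5 of 10 pan-neuronal markers fell and 1 rose in A53T cultures, and 6 fell in vector cultures. Among 8 measured glutamatergic markers, 6 fell in A53T cultures, and 3 fell and 1 rose in vector cultures. Among 8 measured GABAergic markers, 5 fell and 1 rose in A53T cultures and 7 fell in vector cultures. Among 9 measured astrocyte markers, 4 fell and 2 rose in A53T cultures, and 7 fell and 2 rose in vector cultures. Of 6 measured oligodendrocyte markers, 2 fell and 3 rose in A53T cultures and 3 fell in vector cultures, and of 5 measured fibroblast markers, 1 fell in A53T and 3 in vector cultures. The 1 measured endothelial marker passed in neither set. The 1 measured microglial marker of 8, Cd68, was higher at 2.0 µM in A53T cultures (log2 1.20) and in vector cultures (log2 1.92). In A53T against vector cultures in DMSO, 6 GABAergic, 2 astrocyte, 2 fibroblast, 1 oligodendrocyte and 0 pan-neuronal markers were lower, while 2 glutamatergic markers were higher and 1 lower and the microglial marker was higher (log2 0.83). Their part in the channel results was not tested.

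Among voltage-gated genes, Kcnc1 and Kcnc2 encode fast delayed rectifiers that let neurons fire at high rates and are known from fast-spiking interneurons. In A53T cultures Kcnc1 had 133, 156 and 137 normalized counts at 2.0 µM, against 253 and 269 in DMSO. In vector cultures Kcnc1 had 437, 417 and 404 in DMSO, 263, 314 and 281 at 0.2 µM and 183, 155 and 175 at 2.0 µM. No drug-treated group overlapped its DMSO control, and the log2 fold changes were -0.88 ± 0.11 (SE) in A53T at 2.0 µM (adjusted p = 1.6e-04), -0.55 ± 0.10 in vector at 0.2 µM (adjusted p = 0.0036) and -1.29 ± 0.10 in vector at 2.0 µM (adjusted p = 7.6e-07). Kcnc2 had 239.8, 297 and 244 in A53T at 2.0 µM, against 417 and 365 in A53T in DMSO. In vector cultures Kcnc2 had 629, 651 and 604 in DMSO, 453, 467 and 411 at 0.2 µM and 216, 223 and 239 at 2.0 µM. Its vector libraries at 2.0 µM held the lowest counts of all groups, with a log2 fold change of -1.47 ± 0.10 (adjusted p = 2.2e-07), against -0.50 ± 0.10 at 0.2 µM (adjusted p = 0.0047) and -0.59 ± 0.11 in A53T at 2.0 µM (adjusted p = 0.0016). A53T in DMSO was lower than vector in DMSO for both, by -0.68 ± 0.11 for Kcnc1 (adjusted p = 0.0020) and -0.69 ± 0.11 for Kcnc2 (adjusted p = 0.0015). The summed GABAergic markers given above were lower in the same comparisons. In A53T at 0.2 µM these markers summed to 11526 to 11547, also below A53T in DMSO. There Kcnc1 had 591, 665 and 613 and Kcnc2 had 663, 592 and 671, all above A53T in DMSO. The part of the markers in the fall of Kcnc1 and Kcnc2 was not tested. Kcnc4, of the same subfamily, changed by -0.55 ± 0.09 in A53T and -0.41 ± 0.08 in vector cultures at 2.0 µM.

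The A-type channels, which open below threshold and delay firing, are formed by Kcnd genes with the calcium sensors of the Kcnip family. Kcnd2 had 64.1, 128 and 132 normalized counts in A53T at 2.0 µM, against 269 and 268 in A53T in DMSO. In vector cultures Kcnd2 had 318, 270.1 and 218 in DMSO, 234, 316 and 309 at 0.2 µM and 158, 125 and 165 at 2.0 µM. The 2.0 µM libraries lay below DMSO in both sets (-1.38 ± 0.27, adjusted p = 0.0026 in A53T, and -0.84 ± 0.25, adjusted p = 0.013 in vector), and the vector libraries at 0.2 µM overlapped DMSO. The vector call ended without vector 2.0 µM replicate 2 or vector DMSO replicate 1 (adjusted p 4.4e-07 to 0.059 over the alternatives). Kcnip3, a partner of these channels also known as a calcium-dependent transcriptional repressor, had 124, 183 and 163 in A53T at 2.0 µM, against 316 and 365 in A53T in DMSO. In vector cultures Kcnip3 had 483, 426 and 429.9 in DMSO, 396, 567 and 451 at 0.2 µM and 317, 248 and 284 at 2.0 µM. It too was lower at 2.0 µM in both sets (-1.13 ± 0.18, adjusted p = 5.9e-04 in A53T, and -0.66 ± 0.16, adjusted p = 0.0043 in vector), and A53T lay below vector at 2.0 µM (-0.86 ± 0.16, adjusted p = 0.0031). Kcnd3 and Kcnip4 also fell at 2.0 µM in both sets, by -0.48 ± 0.14 and -1.19 ± 0.28 in A53T and -0.51 ± 0.12 and -0.87 ± 0.25 in vector cultures. Both A53T calls ended without the unnumbered A53T DMSO library, and that of Kcnd3 also without replicate 1 (adjusted p 0.0018 to 0.11 over the alternatives for Kcnd3 and 2.0e-04 to 0.064 for Kcnip4). Kcnd1 passed in neither (-0.08 in A53T, 0.14 in vector).

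The Kcng, Kcns, Kcnv and Kcnf genes encode silent subunits, which form no channel alone and assemble with other voltage-gated subunits. Kcnv1, of this kind, had 214, 280.1 and 169 normalized counts in A53T at 2.0 µM, against 538 and 588 in A53T in DMSO. In vector cultures Kcnv1 had 765, 805 and 736 in DMSO, 624, 636 and 631 at 0.2 µM and 298, 303 and 247 at 2.0 µM. Kcnv1 was thus below its DMSO level in every 2.0 µM library (-1.37 ± 0.16, adjusted p = 8.8e-05 in A53T, and -1.44 ± 0.14, adjusted p = 5.2e-06 in vector). At 0.2 µM the vector libraries also lay below DMSO, but the change of -0.29 ± 0.14 did not pass (adjusted p = 0.18). Kcns2 was a low gene, with 2.92, 9.0 and 8.55 in A53T at 2.0 µM, against 25.4 and 28.7 in A53T in DMSO. In vector cultures Kcns2 had 28.7, 23.5 and 22.1 in DMSO, 15.9, 30.7 and 26.9 at 0.2 µM and 6.79, 10.3 and 10.1 at 2.0 µM. It had the lowest log2 fold change among called voltage-gated members in A53T cultures (-1.96 ± 0.40, adjusted p = 0.0031), with -1.37 ± 0.36, adjusted p = 0.0074 in vector cultures.

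Kcng3, near the floor of the table, had 3.87, 2.41 and 1.03 normalized counts in vector at 2.0 µM, against 8.90, 4.10 and 9.38 in vector in DMSO. Its fall of -1.32 ± 0.46 passed (adjusted p = 0.033) but did not when vector 2.0 µM replicates 2 or 3 or vector DMSO replicates 1 or 3 were left out (adjusted p 0.015 to 0.13 over the alternatives). Kcns1 was the only voltage-gated member to rise in vector cultures at 2.0 µM, with 22.5, 24.6 and 19.2 at 2.0 µM, against 9.995, 6.14 and 16.2 in DMSO. The groups did not overlap (1.06 ± 0.40, adjusted p = 0.046), yet the call ended without any 1 of the 3 libraries at 2.0 µM or without vector DMSO replicates 1 or 2, and over all alternatives the adjusted p ran to 0.185. Kcng1 and Kcns3 fell at 2.0 µM in both sets, by -0.84 ± 0.21 and -0.65 ± 0.15 in A53T and -1.07 ± 0.19 and -0.91 ± 0.13 in vector cultures. Both A53T calls ended without the unnumbered A53T DMSO library (adjusted p 0.0014 to 0.12 over the alternatives for Kcng1 and 0.0021 to 0.081 for Kcns3). Kcnf1 passed in A53T cultures (-1.34 ± 0.33, adjusted p = 0.0082) and not in vector cultures (-0.34 ± 0.29, adjusted p = 0.37), and the difference between these effects did not pass (-1.0 ± 0.44, adjusted p = 0.14). The A53T call of Kcnf1 ended without either A53T DMSO library (adjusted p 4.3e-06 to 0.059 over the alternatives).

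The Kcnh genes encode the ether-a-go-go channels, which set excitability below threshold. Kcnh3, one of the cortical members, was the voltage-gated gene most lowered in A53T against vector cultures in DMSO. It had 1109 and 1293 normalized counts in A53T in DMSO, against 2968, 3027 and 3083 in vector in DMSO. At 2.0 µM it had 737, 750.4 and 452 in A53T, against 1214, 1479.9 and 1204 in vector cultures. A53T lay below vector in both pairs, with log2 fold changes of -1.34 ± 0.18 in DMSO (adjusted p = 5.4e-04) and -1.04 ± 0.16 at 2.0 µM (adjusted p = 9.4e-04). The drug at 2.0 µM lowered it within each set as well, by -0.93 ± 0.18 in A53T (adjusted p = 0.0019) and -1.23 ± 0.16 in vector cultures (adjusted p = 4.2e-05), whereas at 0.2 µM the vector values, 3095, 2989 and 2774, overlapped DMSO. Kcng2, a silent subunit, was also lower in A53T in DMSO, with 90.95 and 87.2 in A53T, against 171, 164 and 176 in vector cultures (-0.93 ± 0.17, adjusted p = 0.0041). At 2.0 µM it remained lower in A53T, with 71.6, 61.03 and 63.6 in A53T, against 88.7, 107 and 91.1 in vector cultures (-0.54 ± 0.15, adjusted p = 0.029). The call at 2.0 µM ended with quantile normalization, without A53T 2.0 µM replicate 2 and without any 1 of the 3 vector libraries at 2.0 µM (adjusted p 0.0019 to 0.23 over the alternatives).

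Kcnq3 encodes a subunit of the M channel, a slow current that muscarinic receptors close. Kcnq3 had 113, 187 and 155 normalized counts in vector at 0.2 µM, against 103, 70.4 and 70.96 in vector in DMSO, with no overlap (0.88 ± 0.21, adjusted p = 0.015). At 2.0 µM it had 141, 88.1 and 124 in vector cultures, which overlapped DMSO (0.53 ± 0.21, adjusted p = 0.061). The 0.2 µM call ended without vector 0.2 µM replicates 2 or 3 or vector DMSO replicates 2 or 3 (adjusted p 6.9e-05 to 0.070 over the alternatives).

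Among the inward rectifiers, Kcnj4 encodes a strong rectifier of cortical neurons that stabilizes the resting potential. In A53T cultures Kcnj4 had 1167, 1085 and 895 normalized counts at 2.0 µM, against 1598 and 1579 in DMSO. In vector cultures Kcnj4 had 2253, 2340.2 and 2378 in DMSO, 1829.7, 1708 and 1557 at 0.2 µM and 1114, 1430.3 and 1094 at 2.0 µM. The vector groups were separate and ordered by dose, at -0.45 ± 0.11 for 0.2 µM (adjusted p = 0.015) and -0.95 ± 0.11 for 2.0 µM (adjusted p = 2.0e-05), and A53T cultures changed by -0.61 ± 0.12 at 2.0 µM (adjusted p = 0.0030). A53T in DMSO lay below vector in DMSO (-0.55 ± 0.12, adjusted p = 0.012), a call that ended without either A53T DMSO library (adjusted p 1.2e-06 to 0.091 over the alternatives). The 0.2 µM call ended without vector 0.2 µM replicate 3 or vector DMSO replicates 2 or 3 (adjusted p 2.1e-05 to 0.072 over the alternatives).

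Kcnj14 encodes a rectifier of the same subfamily and went the other way. In A53T cultures Kcnj14 had 179.6, 167 and 195 normalized counts at 2.0 µM, against 132 and 131 in DMSO. In vector cultures Kcnj14 had 97.2, 96.9 and 115 in DMSO, 133, 142 and 118 at 0.2 µM and 226, 204 and 228 at 2.0 µM. Each 2.0 µM library exceeded its DMSO group (0.45 ± 0.13, adjusted p = 0.015 in A53T, and 1.09 ± 0.11, adjusted p = 7.0e-06 in vector). The vector libraries at 0.2 µM also lay above DMSO, without passing (0.34 ± 0.11, adjusted p = 0.051). The A53T call ended without either A53T DMSO library (adjusted p 0.0046 to 0.13 over the alternatives).

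Kcnj11 forms the pore of the ATP-sensitive potassium channel, which couples metabolism to excitability. It had 355 and 359 normalized counts in A53T in DMSO, against 695, 691 and 693 in vector in DMSO. At 2.0 µM it had 317, 319 and 266 in A53T, against 416, 503 and 413 in vector cultures. A53T libraries lay below vector libraries in both pairs (-0.95 ± 0.12, adjusted p = 3.4e-04 in DMSO, and -0.56 ± 0.10, adjusted p = 0.0033 at 2.0 µM). The drug lowered Kcnj11 in vector cultures at 2.0 µM (-0.65 ± 0.10, adjusted p = 2.5e-04), and the change in A53T cultures did not pass (-0.25 ± 0.12, adjusted p = 0.10). Its regulatory subunit, the sulfonylurea receptor Abcc8, was lower in A53T in DMSO (-0.46 ± 0.12, adjusted p = 0.026) and at 2.0 µM in both sets (-0.38 in A53T and -0.81 in vector cultures).

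Kcnj10 encodes the rectifier through which astrocytes buffer extracellular potassium, and it was close to the floor of the table. In A53T cultures Kcnj10 had 0.813 and 3.25 normalized counts in DMSO, 28.5, 37.9 and 39.7 at 0.2 µM and 0.219, 5.0 and 1.12 at 2.0 µM. In vector cultures Kcnj10 had 6.67, 6.13 and 7.03 in DMSO, 1.98, 10.6 and 5.10 at 0.2 µM and 0.949, 0.105 and 2.04 at 2.0 µM. Only the vector pair at 2.0 µM passed among the drug comparisons of replicated groups (-2.02 ± 0.65, adjusted p = 0.021), and it did not without vector 2.0 µM replicate 2 or vector DMSO replicates 1 or 3 (adjusted p 0.0027 to 0.081 over the alternatives). The summed astrocyte markers were lower at 2.0 µM than in DMSO in both sets. In A53T at 0.2 µM they summed to 51507 to 51983, also below the 75991 to 79623 of A53T in DMSO, while Kcnj10 was higher there. The part of these markers in the Kcnj10 values was not tested. Over the 6 group means on the log2 scale, the members whose pattern was most like that of Kcnj10 were Kcnj3 (Pearson r 0.953), Kcnab1 (0.939) and Kcnh1 (0.935). A53T at 0.2 µM had the highest value of all these genes.

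Kcnj2, a further strong rectifier, had 0.195, 0.000372 and 0.0447 normalized counts in A53T at 2.0 µM, against 5.42 and 5.35 in A53T in DMSO. Those values lie below the added pseudocount, so the log2 fold change of -2.57 ± 0.62 (adjusted p = 0.0076) depends on it, and the call ended without either A53T DMSO library (adjusted p 0.0023 to 0.096 over the alternatives). In vector cultures Kcnj2 had 1.93, 1.25 and 4.06 at 2.0 µM, against 9.88, 3.07 and 2.46 in DMSO, and did not pass. Of the G-protein-gated rectifiers, Kcnj6 fell slightly at 2.0 µM in both sets (-0.26 ± 0.09 in A53T, -0.31 ± 0.08 in vector), Kcnj9 in A53T (-0.49 ± 0.17), and Kcnj3 passed in neither (-0.97 and -1.03). The A53T calls of Kcnj6 and Kcnj9 ended without either A53T DMSO library, that of Kcnj6 also without A53T 2.0 µM replicate 3 (adjusted p 0.016 to 0.22 over the alternatives) and that of Kcnj9 without replicate 1 at 2.0 µM (adjusted p 0.0070 to 0.24 over the alternatives).

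Two-pore channels are the background conductances of the resting membrane. Kcnk3, an acid-sensitive member, fell by about the same amount at 2.0 µM in both sets (-1.12 ± 0.24, adjusted p = 0.0044 in A53T, and -1.06 ± 0.22, adjusted p = 0.0015 in vector). Its A53T call ended without the unnumbered A53T DMSO library (adjusted p 8.0e-04 to 0.10 over the alternatives). Kcnk4, a mechanosensitive member, fell at 2.0 µM (-0.51 in A53T, -0.93 in vector) and was lower in A53T than in vector cultures in DMSO (-0.69 ± 0.17, adjusted p = 0.019). The A53T call at 2.0 µM ended with quantile normalization and without either A53T DMSO library or A53T 2.0 µM replicates 2 or 3 (adjusted p 1.6e-04 to 0.25 over the alternatives), and the DMSO call without either A53T library or vector DMSO replicate 2 (adjusted p 3.3e-04 to 0.13 over the alternatives). Kcnk1 fell in the 3 drug comparisons, by -0.36 ± 0.08 in A53T at 2.0 µM, -0.36 ± 0.07 in vector at 0.2 µM and -0.57 ± 0.07 in vector at 2.0 µM. Kcnk13, a channel known from microglia as well as neurons, had 34.7, 29.7 and 27.7 normalized counts in vector at 0.2 µM, against 60.5, 41.8 and 43.99 in vector in DMSO. At 2.0 µM it had 30.2, 30.5 and 36.4 in vector cultures. Both doses lay below DMSO (-0.64 ± 0.19, adjusted p = 0.035 at 0.2 µM, and -0.56 ± 0.19, adjusted p = 0.026 at 2.0 µM), but the first call ended without vector 0.2 µM replicates 2 or 3 or vector DMSO replicates 1 or 3 (adjusted p 0.016 to 0.13 over the alternatives), and the second without vector 2.0 µM replicates 1 or 2 or vector DMSO replicate 1 (adjusted p 0.014 to 0.12 over the alternatives). A single microglial marker of 8, Cd68, had a row in the table, at 616 to 667 in vector at 2.0 µM against 151 to 191 in vector in DMSO. From 1 marker no change of microglia can be read.

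Kcnn1, Kcnn2 and Kcnn3 encode the small-conductance calcium-activated channels of the afterhyperpolarization, and they did not move together. Kcnn3 had 862, 787 and 740.1 normalized counts in A53T at 2.0 µM, against 444 and 468 in A53T in DMSO. In vector cultures Kcnn3 had 322, 307 and 342 in DMSO, 562, 548 and 552 at 0.2 µM and 655, 729 and 739 at 2.0 µM. The vector groups were separate and rose with dose. The log2 fold changes were 0.80 ± 0.08 in A53T at 2.0 µM (adjusted p = 4.1e-05), 0.77 ± 0.08 in vector at 0.2 µM (adjusted p = 9.5e-05) and 1.12 ± 0.08 in vector at 2.0 µM (adjusted p = 2.5e-07). A53T in DMSO exceeded vector in DMSO (0.49 ± 0.08, adjusted p = 0.0025), the only member called higher there. None of these 4 calls ended with 1 library left out, but that of A53T against vector in DMSO ended with a replicate block by title number.

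Kcnn1 fell in A53T against vector cultures, with 187 and 226 normalized counts in A53T in DMSO, against 492, 436 and 416 in vector in DMSO. The groups lay far apart (-1.12 ± 0.18, adjusted p = 0.0019). At 2.0 µM Kcnn1 had 116, 191 and 168 in A53T, against 263, 258 and 222 in vector cultures (-0.67 ± 0.16, adjusted p = 0.014), a call that ended without vector 2.0 µM replicate 1 (adjusted p 0.0034 to 0.093 over the alternatives). Of the sodium-activated channels, Kcnt1 fell at 2.0 µM in both sets (-0.79 in A53T, -0.71 in vector). Its A53T call ended without the unnumbered A53T DMSO library (adjusted p 9.2e-04 to 0.073 over the alternatives). Kcnt2 had 158, 198 and 159.5 in vector at 0.2 µM and 165, 138 and 187 at 2.0 µM, against 92.8, 156 and 102 in DMSO. It was called higher at both doses (0.58 ± 0.18, adjusted p = 0.045 at 0.2 µM, and 0.50 ± 0.18, adjusted p = 0.038 at 2.0 µM), while the 2.0 µM libraries overlapped DMSO and both calls ended without vector DMSO replicates 1 or 3, the first also without vector 0.2 µM replicates 2 or 3 (adjusted p 0.0077 to 0.17 over the alternatives) and the second without vector 2.0 µM replicates 1 or 3 (adjusted p 0.0030 to 0.16 over the alternatives). Kcnma1, the large-conductance channel opened by voltage and calcium together, had 144, 143 and 184 in A53T at 2.0 µM, against 205 and 200.01 in A53T in DMSO. In vector cultures Kcnma1 had 177, 143 and 176 in DMSO, 124, 242 and 220.2 at 0.2 µM and 169.7, 139 and 185 at 2.0 µM. It passed in none of these comparisons.

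Hcn4, the slow HCN channel, had 10.6, 30.02 and 47.7 normalized counts in A53T at 2.0 µM, against 73.6 and 127 in A53T in DMSO. Its fall of -1.91 ± 0.58 passed (adjusted p = 0.023), though not without either A53T DMSO library or replicate 1 at 2.0 µM (adjusted p 0.0011 to 0.18 over the alternatives), and in vector cultures -0.82 ± 0.52 did not pass (adjusted p = 0.22). Hcn3 rose in vector at 2.0 µM, with 673, 538 and 714, against 427, 356 and 386 in vector in DMSO (0.71 ± 0.21, adjusted p = 0.013), and not when vector 2.0 µM replicate 3 was left out (adjusted p 8.3e-09 to 0.051 over the alternatives). Pex5l, the auxiliary protein that directs HCN channels to dendrites, rose at 2.0 µM in both sets (0.78 ± 0.11, adjusted p = 2.7e-04 in A53T, and 1.27 ± 0.10, adjusted p = 7.6e-07 in vector).

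Of the auxiliary genes, Kcnab3, a cytoplasmic beta subunit, had the lowest log2 fold change of any called member in A53T against vector cultures in DMSO. It had 22.7 and 28.8 normalized counts in A53T in DMSO, against 78.1, 74.4 and 105 in vector in DMSO. No A53T library came near the vector libraries (-1.69 ± 0.29, adjusted p = 0.0027), but without A53T DMSO replicate 1 the adjusted p was 0.0505. In vector cultures at 2.0 µM Kcnab3 changed by -1.19 ± 0.26 (adjusted p = 0.0024), Kcnab1 by -0.77 ± 0.14 and Kcne5 by -1.16 ± 0.19. None of these 3 passed in A53T cultures, where Kcnab2 fell (-0.80 ± 0.23, adjusted p = 0.019). That call ended without the unnumbered A53T DMSO library or A53T 2.0 µM replicate 1 (adjusted p 0.0014 to 0.15 over the alternatives).

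**Figure D2:**
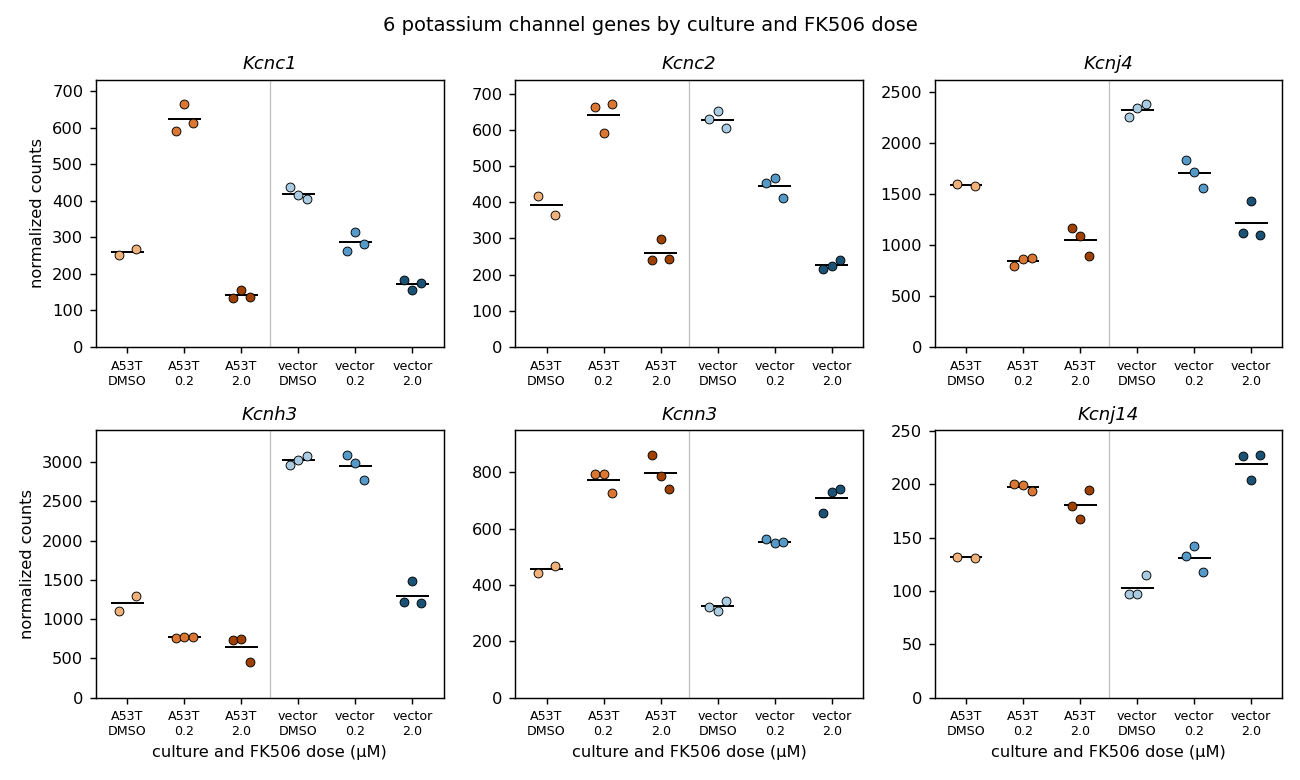
Normalized counts (vertical axes, linear, from 0) of 6 members in each of the 17 libraries by culture and FK506 dose in µM (horizontal axes); points are libraries and bars are group means. Kcnc1, Kcnc2 and Kcnj4 step down with dose in vector cultures, where Kcnn3 and Kcnj14 step up, and Kcnh3 is lower at 2.0 µM alone. The A53T libraries at 0.2 µM do not lie between those in DMSO and at 2.0 µM for Kcnc1, Kcnc2 or Kcnj4.

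Promoters are shown for the members called in all 4 comparisons that had an entry in the RefSeq promoter table (Kcnn3, Kcnc1 and Kcnj4), and for Kcnj14, the other member that rose at 2.0 µM in both sets. Each runs from 250 bases before to 50 bases after the transcription start, 5′ to 3′ on the gene's strand, in build GRCr8. Capitals mark the core of the NFAT site, GGAAA, read on either strand (TTTCC on the opposite one). NFAT is the transcription factor that calcineurin dephosphorylates.
Kcnn3, chr2:177234090-177234389, plus strand: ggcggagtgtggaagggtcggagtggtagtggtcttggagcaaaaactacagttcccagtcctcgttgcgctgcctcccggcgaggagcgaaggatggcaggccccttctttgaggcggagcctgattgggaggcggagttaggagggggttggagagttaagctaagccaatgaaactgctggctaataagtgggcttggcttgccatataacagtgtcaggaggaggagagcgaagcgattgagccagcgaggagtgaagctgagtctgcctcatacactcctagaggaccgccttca
Kcnj14, chr1:105437209-105437508, minus strand: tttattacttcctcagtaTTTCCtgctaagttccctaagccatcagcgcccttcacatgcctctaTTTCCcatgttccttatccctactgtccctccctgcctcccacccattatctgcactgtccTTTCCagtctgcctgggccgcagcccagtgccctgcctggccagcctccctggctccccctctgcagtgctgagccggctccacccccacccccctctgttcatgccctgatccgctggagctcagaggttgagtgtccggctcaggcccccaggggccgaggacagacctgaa
Kcnc1, chr1:106038997-106039296, plus strand: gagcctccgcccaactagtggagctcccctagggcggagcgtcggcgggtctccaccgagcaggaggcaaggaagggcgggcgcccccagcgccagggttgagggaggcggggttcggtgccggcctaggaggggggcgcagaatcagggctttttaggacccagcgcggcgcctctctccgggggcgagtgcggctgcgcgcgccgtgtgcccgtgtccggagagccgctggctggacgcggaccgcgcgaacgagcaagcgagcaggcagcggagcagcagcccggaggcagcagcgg
Kcnj4, chr7:112954498-112954797, minus strand: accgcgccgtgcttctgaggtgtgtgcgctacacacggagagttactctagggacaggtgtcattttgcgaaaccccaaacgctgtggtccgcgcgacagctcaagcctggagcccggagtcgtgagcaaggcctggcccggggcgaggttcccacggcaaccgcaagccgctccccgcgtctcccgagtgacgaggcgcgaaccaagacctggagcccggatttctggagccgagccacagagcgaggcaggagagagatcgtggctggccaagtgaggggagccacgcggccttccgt
Of these windows only that of Kcnj14 held the NFAT core, at 3 places, all as TTTCC. Over all promoters of the table (33469), 62.7% held this core, and so did 23 of the 45 members with an entry. Among members with an entry, 9 of the 24 that fell in vector cultures at 2.0 µM held it, against 14 of the 21 others. The CRE motif TGACGTCA stood in 1.83% of all promoters and in 0 of the 45, the AP-1 motif TGAGTCA in 4.63% and in 0 of the 45, and the E-box CACGTG in 6.42% and in 1 of the 45, that of Kcnh4. All were searched on both strands. A match in such a window is a description of its letters, not a binding site.

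Whether the effect of 2.0 µM FK506 differed between A53T and vector cultures was tested as an interaction. It passed for 8 of 73 members (11.0%, against 14.6% of all genes), 7 with a higher and 1 with a lower log2 change in A53T (8.14% and 6.45% of all genes). In 5 of the 7, Kcnip1, Kcnh1, Kcnn2, Kcnk2 and Kcnmb4, the fall passed in vector but not in A53T cultures. With quantile normalization the interaction passed for 12 members, all higher in A53T, and for 938 higher and 761 lower of all genes. Leaving out 1 library gave 4 to 12 members, the lowest count without A53T DMSO replicate 1, and 5 without its unnumbered partner, vector DMSO replicates 1 or 2, or vector 2.0 µM replicates 1 or 3. Without the 3 outlying libraries it passed for 19, and over all genes for 2169 higher and 2085 lower.

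Kcnh1, an ether-a-go-go channel, had 163, 175 and 130.3 normalized counts in A53T at 2.0 µM, against 179 and 193 in A53T in DMSO. In vector cultures Kcnh1 had 129, 133 and 125 at 2.0 µM, against 318, 334 and 283 in DMSO. The A53T libraries in DMSO already lay below those of vector (-0.74 ± 0.13, adjusted p = 0.0028), and the 2.0 µM groups overlapped. The effects were -0.26 ± 0.13 in A53T and -1.26 ± 0.12 in vector cultures, an interaction of 1.0 ± 0.17, adjusted p = 0.0032. Kcnc2, described above, had an interaction of 0.88 ± 0.15, adjusted p = 0.0025. Kcnip1, the calcium sensor of A-type channels, had 458, 482 and 508 in A53T at 2.0 µM, against 556 and 532 in A53T in DMSO. In vector cultures Kcnip1 had 425, 431 and 418 at 2.0 µM, against 782, 833 and 778 in DMSO. Here too the A53T libraries in DMSO lay below those of vector (-0.55 ± 0.08, adjusted p = 0.0010), and the interaction was 0.73 ± 0.11, adjusted p = 0.0016.

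Kcnn2, the small-conductance channel of cortical pyramidal cells, had 497, 529 and 491 normalized counts in A53T at 2.0 µM, against 524 and 510.5 in A53T in DMSO. In vector cultures Kcnn2 had 473, 560.2 and 475 at 2.0 µM, against 816, 909 and 814 in DMSO. The A53T libraries hardly differed between doses and sat near the vector level at 2.0 µM (0.72 ± 0.14, adjusted p = 0.0054 for the interaction). Kcnk2, a mechano- and lipid-sensitive two-pore channel, had 117, 130.1 and 126 in A53T at 2.0 µM, against 127 and 141 in A53T in DMSO. In vector cultures Kcnk2 had 93.6, 84.6 and 76.9 at 2.0 µM, against 155, 170.2 and 161 in DMSO. It was the 1 two-pore member higher in A53T than in vector cultures at 2.0 µM (0.55 ± 0.11, adjusted p = 0.0058), and its interaction (0.82 ± 0.17, adjusted p = 0.0084) ended without A53T DMSO replicate 1 (adjusted p 0.0015 to 0.070 over the alternatives).

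Kcnmb4, the neuronal beta subunit of the large-conductance channel, had 1603, 1439.7 and 1055 normalized counts in A53T at 2.0 µM, against 1461 and 1512 in A53T in DMSO. In vector cultures Kcnmb4 had 1035, 1280.4 and 1121 at 2.0 µM, against 2004, 2092 and 2165 in DMSO. Replicate 3 of A53T at 2.0 µM lay below the other replicates, and the interaction (0.73 ± 0.22, adjusted p = 0.042) ended in 11 of the 21 alternatives tried (adjusted p 0.0013 to 0.13 over the alternatives). Kcna6, a low-threshold delayed rectifier, had 1775, 1546 and 1506 in A53T at 2.0 µM, against 1321 and 1371 in A53T in DMSO. In vector cultures Kcna6 had 1339, 1364 and 1383 at 2.0 µM, against 1494, 1454 and 1416 in DMSO. It rose in A53T (0.25 ± 0.07, adjusted p = 0.015) and did not pass in vector cultures (-0.09 ± 0.06, adjusted p = 0.23), with an interaction of 0.35 ± 0.09, adjusted p = 0.029. The A53T call ended without either A53T DMSO library (adjusted p 0.0062 to 0.11 over the alternatives). Kcnj14, described above, rose less in A53T than in vector cultures (-0.63 ± 0.17, adjusted p = 0.028). The interaction of Kcna6 ended in 7 (adjusted p 0.0092 to 0.12 over the alternatives) and that of Kcnj14 in 10 of those alternatives (adjusted p 0.010 to 0.14 over the alternatives).

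**Figure D3:**
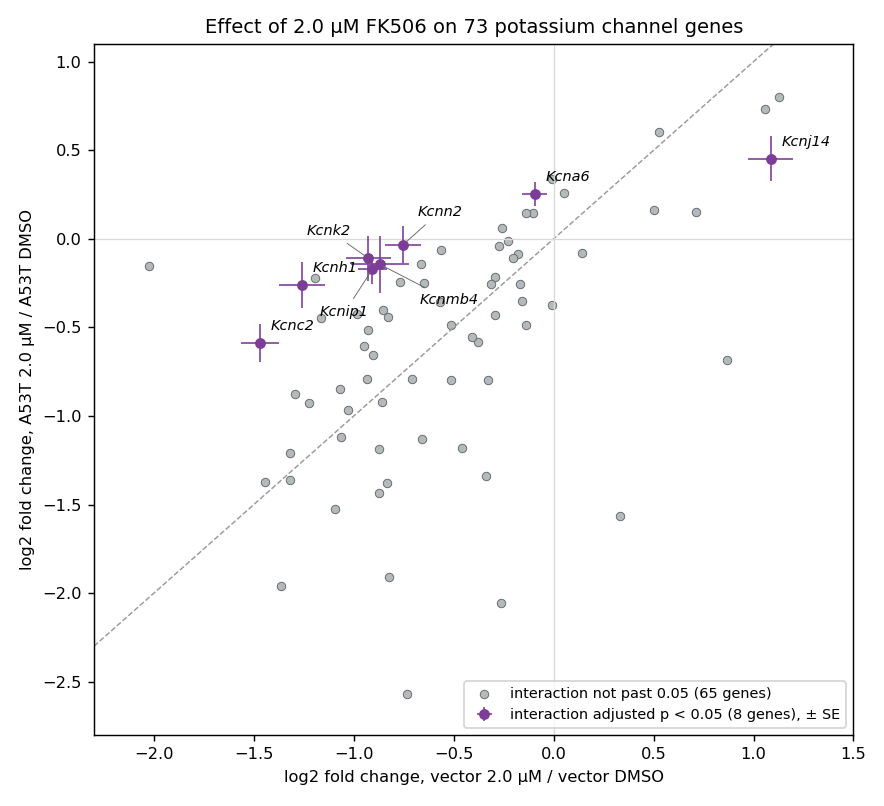
Log2 fold change at 2.0 µM against DMSO of the 73 members in A53T cultures (vertical axis) and in vector cultures (horizontal axis); the dashed line marks equal effects. Purple points with SE bars are the 8 members with an interaction adjusted p under 0.05, of which 7 lie above the line and Kcnj14 below it, and grey points are the other 65.

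Direct comparison of A53T with vector cultures at 2.0 µM called 10 members lower and 3 higher (9.70% and 9.88% of all genes, 19.6% together). With quantile normalization 7 members were lower and 4 higher, beside 1014 lower and 1128 higher of all 11247 genes. The libraries did not overlap for 24 members, against 33.0% of all genes. The 3 higher ones in the fit as reported were Kcnk2, Kcna6 and Kcnj6. The call of Kcna6 ended without A53T or vector 2.0 µM replicate 1 (adjusted p 0.0081 to 0.12 over the alternatives), and that of Kcnj6 without A53T replicates 1 or 2 or any 1 of the 3 vector libraries (adjusted p 0.018 to 0.15 over the alternatives). The lower ones included Kcnh3, Kcnip3, Kcnj11, Kcnn1 and Kcng2, all given above. The count was 6 without vector 2.0 µM replicate 1, 8 without its replicate 3, 3 when only these 2 groups entered the fit, and 26 without the 3 outlying libraries. Over all genes, 1091 lower and 1111 higher calls became 355 and 333 with only these 2 groups. Without the 3 outlying libraries they became 1894 and 1869.

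A53T cultures at 0.2 µM stood outside the range of the other groups for most members. Each of their 3 libraries exceeded all other 14 libraries for 36 of 73 members and fell below all of them for 8. Of all genes 34.8% lay above and 32.4% below in the same way, 67.2% in all, against 60.3% of the members. With the 3 libraries counted as 1 sample, 40 members were higher and 11 lower than in A53T in DMSO (33.6% and 34.2% of all genes, 67.8% together), and 35 were higher and 14 lower than in vector cultures at 0.2 µM (33.8% and 35.1% of all genes, 68.9% together). The libraries did not overlap for 67 and 63 members in these comparisons, against 89.4% and 85.4% of all genes. Quantile normalization moved the median of all genes to -0.202 and -0.223 on the log2 scale in these comparisons. Fewer members were then higher and more were lower than in the fit as reported, and the same held for all genes. Over all alternatives the median of the members ran from 0.51 to 0.75 against A53T in DMSO. Against vector at 0.2 µM it ran from 0.20 to 0.50. In these libraries the pan-neuronal markers summed to 58829.9 to 59927 and the glutamatergic ones to 15730.4 to 16248, against 47476 to 48539 and 10456 to 11272 in A53T in DMSO. The astrocyte markers summed to 51507 to 51983, against 75991 to 79623 in A53T in DMSO, and the GABAergic ones to 11526 to 11547, against 16387 to 16778. The oligodendrocyte markers summed to 2533 to 2607, against 2836 to 2845, the fibroblast ones to 369.6 to 444, against 527 to 612, and the 1 measured microglial marker lay at 351 to 366, against 299 to 307. The neuronal and glutamatergic sums and the microglial marker were thus above, and the other sums given here below, those of A53T in DMSO. The median log2 change was 0.24 for pan-neuronal, 0.89 for glutamatergic, -0.36 for GABAergic and -0.03 for astrocyte markers. It was 0.875 for oligodendrocyte and 0.80 for fibroblast markers, so in these lists the median marker and the sum went opposite ways. The part of the markers was not tested. Since the group is 1 sample, the spread among separate samples of it is not known.

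By class, 20 of the 35 voltage-gated members lay above all other libraries, and so did 5 of the 9 inward rectifiers, 3 of the 6 calcium- or sodium-activated channels, 3 of the 4 HCN genes, 2 of the 8 two-pore channels and 3 of the 11 auxiliary genes. Kcna2, which encodes a channel of axons and their terminals, had 762, 692 and 712 normalized counts in A53T at 0.2 µM, against 2.22 to 14.3 in the other 14 libraries. Kcnq3, described above, had 2239.9, 2323 and 2272 in A53T at 0.2 µM, against at most 187 elsewhere. These levels were many times those of any other library.

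Kcnma1 had 1360.03, 1396 and 1458 normalized counts in A53T at 0.2 µM, against at most 242 in the other libraries. Kcnh7, a channel of the erg type, had 662, 652 and 581, against at most 70.4. Kcnk9, an acid-sensitive two-pore channel, had 146, 166 and 164, against at most 18.2. Each of these genes was thus set apart from every other group by more than its whole range there. Kcna1, Kcna3, Kcng3 and Kcnh5 were set apart likewise, at 331 to 350.4, 233 to 255, 58.9 to 64.9 and 78.6 to 89.2 in A53T at 0.2 µM, against at most 47.9, 12.9, 9.38 and 10.02 elsewhere. The lowest mean of any gene in the table, over all libraries, was 3.65 normalized counts. Members near the floor elsewhere, such as Kcng3, Kcnh5 and Kcnj2, may be in the table only through these libraries, and whether they are is not known.

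**Figure D4:**
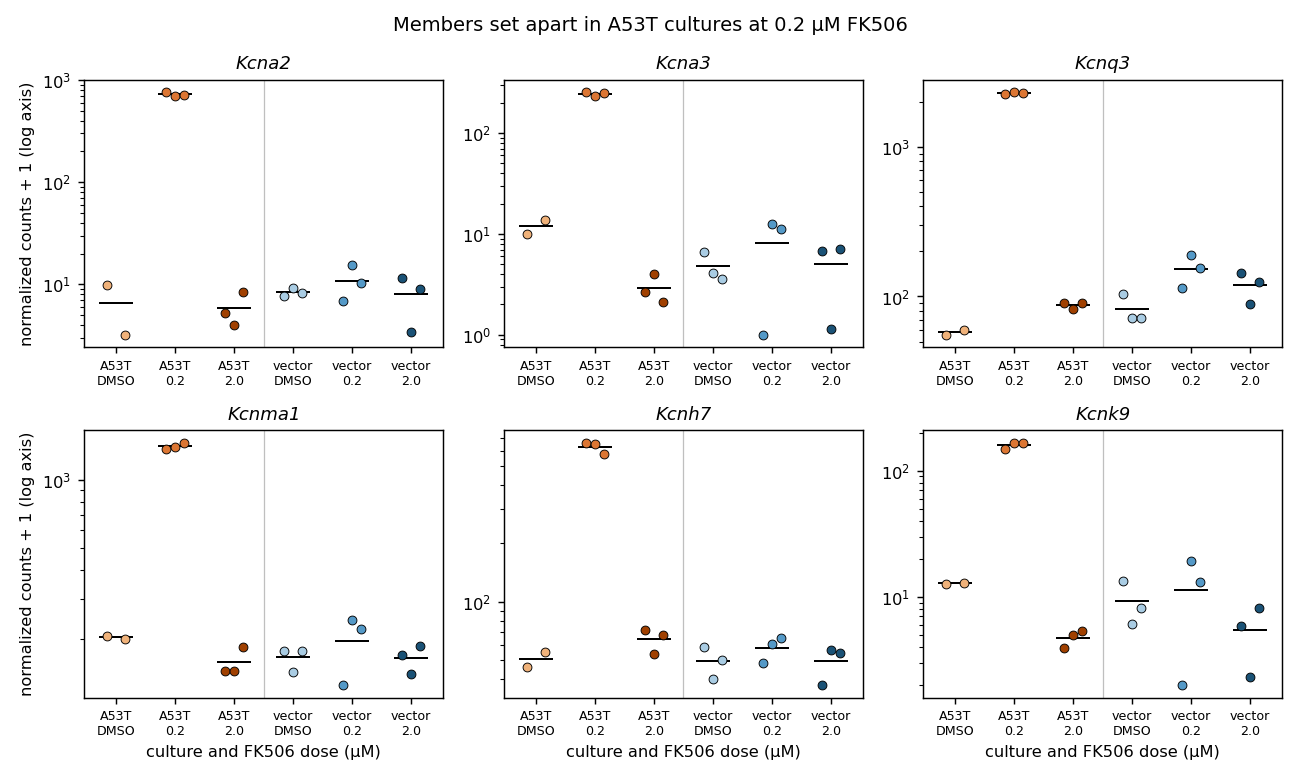
Normalized counts plus 1 (vertical axes, log scale) of 6 members in each of the 17 libraries by culture and FK506 dose in µM (horizontal axes); points are libraries and bars are group means. In every panel the 3 libraries of A53T at 0.2 µM stand above the other 14, from Kcna2 at 692 to 762 to Kcnk9 at 146 to 166 before the 1 is added.

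The 8 members below every other library were Kcng2, Kcng4, Kcnip1, Kcnj4, Kcnj11, Kcnk12, Kcnk13 and Kcnmb4. Kcnmb4 had 653, 724 and 634 normalized counts in A53T at 0.2 µM, against at least 1035 elsewhere. Kcnj4 had 793, 857 and 866, against at least 895, and Kcnip1 had 326, 364 and 357, against at least 418. The pore gene Kcnma1 and its beta subunit Kcnmb4 thus lay at opposite ends of the range of these libraries.

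In all, 17 of 73 members passed in none of the 6 comparisons among the 5 replicated groups. Besides Kcnma1 they were Kcna2, Kcna3, Kcnd1, Kcne2, Kcng4, Kcnh5, Kcnh6, Kcnh7, Kcnj12, Kcnk9, Kcnk10, Kcnk12, Kcnmb2, Kcnq1, Kcnq5 and Kcnrg. Of these 17, 7 had a mean under 50 normalized counts over all libraries, as did 8 of the 56 members that passed in at least 1 of these comparisons. How many of all genes passed in none of them was not counted, so the 17 are given as a list.

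Transcripts of proteins that anchor or modify the channels were mostly lower where they changed at 2.0 µM. Of 28 listed partners 23 were measured: 10 fell and 1 rose in A53T at 2.0 µM, 12 fell and 2 rose in vector at 2.0 µM, 2 fell in vector at 0.2 µM, and 2 fell and 1 rose in A53T against vector in DMSO. Over all genes 37.6%, 47.2%, 18.3% and 14.0% were called in these comparisons, so the counts in vector at 0.2 µM and in A53T in DMSO lay below the background. At 2.0 µM 17.9% of all genes fell in A53T and 23.8% in vector cultures. Lgi1, a secreted protein that modulates axonal Kv channels, changed by -0.59 ± 0.16 in A53T (adjusted p = 0.015) and by -0.96 ± 0.15 in vector cultures at 2.0 µM (adjusted p = 1.6e-04). Dpp10, a partner of A-type channels, changed by -0.91 ± 0.18 (adjusted p = 0.0028) and -0.80 ± 0.16 (adjusted p = 0.0015) in the same pair, and Vapb, a tethering protein of the endoplasmic reticulum, by -0.58 ± 0.15 (adjusted p = 0.012) and -0.79 ± 0.14 (adjusted p = 4.7e-04).

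Transcripts of the pumps and cotransporters that set the potassium gradient were all measured, 10 of 10. At 2.0 µM 5 fell and 1 rose in A53T cultures, and 6 fell and 1 rose in vector cultures. At 0.2 µM 3 fell in vector cultures, and 3 fell and 1 rose in A53T against vector in DMSO. These counts stand beside the same shares of all genes, 37.6%, 47.2%, 18.3% and 14.0%, and beside falls at 2.0 µM of 17.9% in A53T and 23.8% in vector cultures. Atp1b1, a sodium pump subunit, fell in each of these, by -0.56 ± 0.07 in A53T at 2.0 µM, -0.37 ± 0.06 in vector at 0.2 µM, -0.89 ± 0.06 in vector at 2.0 µM, and -0.23 ± 0.07 in A53T against vector in DMSO. Slc12a5, the neuronal potassium-chloride cotransporter, fell at 2.0 µM by -0.71 ± 0.09 in A53T (adjusted p = 2.0e-04) and -0.48 ± 0.08 in vector cultures (adjusted p = 4.8e-04).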

How the data were processed

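Poly(A) RNA libraries were made with the TruSeq Stranded mRNA kit, per the labels' protocols. The submitters' processing notes list FastQC, TopHat and HTSeq with rn6; their versions and the way counts were normalized are not given in the sources used here. Values deposited by the authors are normalized counts, handled as a signal, since at a tolerance of 0.1 step only 33.9% to 100% of low values per library were whole multiples of 1 step. Raw depth is unknown, so no counting interval is given. Of the 2 A53T DMSO samples, titled 1 and 2, the columns carry 1 and 3, so the second is called unnumbered.

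Values were fitted as log2(value + 1) with limma 3.58.1 (trend) in R 4.3.3, with a mean per group over 15 samples (9 residual degrees of freedom) and Benjamini-Hochberg adjustment over all 11247 genes at 0.05. The minimum mean of 1 removed 0 genes. Fold changes on this scale understate changes of low genes. The 3 libraries of A53T at 0.2 µM were averaged to 1 sample, which is assumed to vary like the others. Levels are not compared between genes, since no gene lengths were used.

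Members, lists, markers and tests were chosen with earlier results of these data known. Library values are given for the 5 largest rises and falls past the threshold in each of 4 comparisons, the interaction members, and Kcnj10, Kcnip3, Kcnq3 and Kcnma1; some genes that these rules name, and a check of the introduced gene, are not reported here, while counts cover all members. Genes from the figure of A53T at 0.2 µM other than Kcnq3 and Kcnma1 were chosen after their values were seen. Alternatives were pseudocounts of 0.25 and 4, a mean of at least 50, quantile normalization, all 17 libraries as separate samples, only the groups compared, each library left out, the 3 outlying libraries left out and a replicate block by title number. A block by column number and the axis score as a covariate were chosen after seeing the data.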

Additional observations from a re-analysis of the deposited data

Results flagged for a closer look

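For 8 members the effect of 2.0 µM FK506 differed between A53T and vector cultures by the interaction term of the fit (limma, adjusted over all genes). The log2 difference between the effects was 1.0 for Kcnh1, 0.88 for Kcnc2, 0.82 for Kcnk2, 0.73 for Kcnip1, 0.73 for Kcnmb4, 0.72 for Kcnn2, 0.35 for Kcna6 and -0.63 for Kcnj14. Of these, Kcnh1, Kcnc2, Kcnip1 and Kcnn2 passed with any 1 library left out, and Kcnk2, Kcna6, Kcnmb4 and Kcnj14 did not. The share of members with such a difference, 11.0%, was below the 14.6% of all genes.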

How the results depend on the processing

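Over 154 pairs of a named member and a comparison, the alternatives gave 2274 values, of which 2085 kept their direction and side of the threshold, 155 no longer passed, 19 newly passed and 15 changed sign. With 1 library left out, the members called ranged from 10 to 16 for A53T against vector in DMSO (18 in the fit as reported), 6 to 15 for vector at 0.2 µM (11), 36 to 40 for vector at 2.0 µM (41), 16 to 34 for A53T at 2.0 µM (34), 33 to 44 for vector at 2.0 against 0.2 µM (39), 6 to 19 for A53T against vector at 2.0 µM (13), 43 to 53 for A53T at 0.2 µM against DMSO (51), 44 to 50 for A53T against vector at 0.2 µM (49) and 4 to 12 for the interaction (8). Counts moved by more than 1.5 times as follows. With the axis score as a covariate, chosen after seeing the data, they were 31 for A53T against vector in DMSO, 17 for vector at 0.2 µM, 24 for A53T against vector at 2.0 µM and 16 for the interaction. With only the groups compared in the fit they were 31, for A53T against vector in DMSO, 19 for A53T at 2.0 µM and 3 for A53T against vector at 2.0 µM. Without the 3 outlying libraries they were 32 for A53T against vector in DMSO, 27 for vector at 0.2 µM, 26 for A53T against vector at 2.0 µM and 19 for the interaction. The axis score and the 3 outlying libraries were taken from the within-group differences of these same libraries, so those fits are not independent of the spread they estimate. In each of these fits the calls over all genes moved in the same direction as those of the members. Fewer samples enter some of the fits, and the cause of the changed counts was not tested.

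Same-numbered libraries did not deviate together more often than others. Of 18 same-number pairs 7 had a correlation over 0.1 (-0.51 to 0.669), against 20 of 36 different-number pairs (-0.64 to 0.642). The check left out A53T in DMSO and at 0.2 µM. Deviations from a group mean are also tied to each other within the group, so it cannot exclude that the numbers pair the samples. With a replicate block by title number, which leaves A53T in DMSO with 1 library, the counts were 6 for A53T against vector in DMSO, 16 for A53T at 2.0 µM and 3 for the interaction, while with a block by column number every count stayed within 1.5 times. With the block by title number, the calls of Kcnc1, Kcnc2, Kcng2, Kcnip1 and Kcnn3 in A53T against vector in DMSO were among those that ended. The averaged A53T sample at 0.2 µM has no number, so its 2 comparisons have no block.

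The values that changed sign belonged to members not called in the comparison. At 0.2 µM in vector cultures these were Kcnj10 (0.14) without vector 0.2 µM replicate 1 and likewise without the 3 outlying libraries, Kcnip3 (-0.0761 without vector 0.2 µM replicate 2, -0.11 with the covariate) and Kcnma1 (-0.0338 with the covariate). With 1 library left out they ranged from -0.83 to 0.14 for Kcnj10 and -0.0761 to 0.18 for Kcnip3. At 2.0 µM in vector cultures Kcnma1 turned to 0.11 without vector 2.0 µM replicate 2 or the 3 outlying libraries and to 0.04 without vector DMSO replicates 1 or 3. In A53T cultures at 2.0 µM Kcnma1 turned to 0.0474 with the covariate, and Kcnj10 to 0.96 with the covariate, 0.77 with quantile normalization, 0.46 without the unnumbered A53T DMSO library (range -0.79 to 0.46 with 1 library left out) and 0.36 without A53T 2.0 µM replicate 1 or the 3 outlying libraries.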
